A study of Mus musculus with 20 samples.

Results

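The genes described here encode the proteasome, the multi-subunit protease that degrades ubiquitin-tagged proteins, and the factors that assemble, cap or regulate it. They were taken as the probe sets of the array with exactly 1 gene symbol that begins with Psm, then a letter from a to g and a digit, keeping the probe set with the highest mean where a gene had several. This gave 50 genes of the 19505 named genes of the array, each with 1 probe set. The pattern took in Psmc3ip, a meiotic recombination factor, and Psme3ip1, an interaction partner of Psme3, neither of which is a subunit. Psmb5, the constitutive subunit with chymotrypsin-like activity, was not analysed here.

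RNA was measured on 20 mouse Clariom S arrays in 10 groups of 2. The cultured groups were D2-IL6, D2-Control, D1-IL6 and D1-Control. They held marrow cells depleted of lineage-positive cells, from healthy female WT C57BL/6 mice, grown in medium with erythropoietin. IL-6 groups received recombinant mouse interleukin 6 at 100 ng/mL from the start of culture. The labels do not define D1 and D2 further, name these cells erythroblasts and do not tie arrays to the 2 mice of origin. The freshly isolated groups were DKO (mDia1-miR-146a double KO) and DWT (double WT) mice in a C57BL/6 background, aged 1 year, each at 3 stages of maturation named I for proerythroblasts, II+III for basophilic with polychromatic cells, and IV for orthochromatic cells. mDia1 is a formin that nucleates actin filaments, and miR-146a is a microRNA that restrains innate immune signalling. The DKO arrays came from females, and at each stage the DWT arrays came from 1 male (replicate 1) and 1 female (replicate 2). The labels do not give how the stages were isolated, in which cells the KO alleles act, or which arrays of different stages came from 1 DKO mouse.

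The 20S core of the proteasome is a barrel of 2 outer rings of alpha subunits, which gate the entrance, and 2 inner rings of beta subunits. Psmb6 (beta1) and Psmb7 (beta2) carry catalytic sites together with Psmb5, and the interferon-inducible subunits Psmb9 (beta1i), Psmb10 (beta2i) and Psmb8 (beta5i) replace them in the immunoproteasome, which cuts peptides for MHC class I. The 19S cap binds and unfolds ubiquitinated proteins with its ATPases (Psmc genes) and its non-ATPase subunits (most Psmd genes). Psmd4 is a ubiquitin receptor, and Psmd5, Psmd9 and Psmd10 help to assemble the cap. Other caps are the 11S activators Psme1 and Psme2 (PA28 alpha and beta), the nuclear Psme3 (PA28 gamma) and Psme4 (PA200). Psmf1 (PI31) binds the 20S core, and Psmg1 to Psmg4 help to assemble it. Maturing erythroblasts remodel their proteome, in part through ubiquitin and the proteasome.

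Values are the authors' log2 signals. The background level of an array is the 95th percentile of its background probe sets and ranged from 7.25 to 7.74. Of the 50 genes, 40 lay above it in all 20 arrays, 2 (Psma8, a testis alpha subunit, and Psmb11, the thymus-specific beta subunit) in none, and 8 in some arrays. Differences between group means were tested with limma on all 19572 named probe sets, with an adjusted p under 0.05 as the threshold, and errors of log2 fold changes are SEs of the fit with n = 2 arrays per group. Diaph1, which encodes mDia1, read 6.87 to 7.59 in the DKO arrays and 9.29 to 11.49 in the DWT arrays; miR-146a was not checked. Of the arrays, DKO-I replicate 2 stood apart. It correlated with its partner at r = 0.903 across genes, where other pairs reached at least 0.97. The median of its positive control probe sets was 10.04, against 10.81 to 11.48 elsewhere, and 24 of the 50 genes had their lowest value of all arrays in it. Results for the 50 genes in the freshly isolated cells are therefore given with this array and, in part, also without it. Marker lists and lists of genes outside the symbol pattern were tested only with it. Of 16 listed erythroid markers 13 were measured. Near background in both arrays of a group were 2 of them in DKO-I and 0 in every other group. Neutrophil markers were high at stage I of the freshly isolated cells: the mean over 15 genes was 17.02 and 14.80 in DKO-I and 16.43 and 16.57 in DWT-I. At stage IV it was lower, at 12.82 and 11.72 in DKO-IV and 8.66 and 10.59 in DWT-IV. In bulk samples, fewer cells of a type and less RNA per cell cannot be told apart.

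The genes that varied most between groups were the 3 immunoproteasome subunits and Psmf1. The range of the 10 group means was 6.98 log2 units for Psmb8, 6.59 for Psmf1, 6.52 for Psmb9 and 5.68 for Psmb10, against a median of 2.0 over the 50 genes. These ranges span cultured and freshly isolated cells, and whether all arrays were normalized together is not stated. The lowest means of Psmb8, Psmb9 and Psmb10 were those of D2-Control, near background. Without DKO-I replicate 2 the range of Psmf1 was 4.48, behind Psmb8 (6.97), Psmb9 (6.92) and Psmb10 (5.68), against a median of 1.88. The smallest range was that of Psmd8, a subunit of the 19S lid, at 0.77 with and 0.95 without that array. The immunoproteasome genes are induced together by interferon, and their promoters and that of Psme1 are shown because these genes moved together in several comparisons. The RefSeq sequences (GRCm38.p6) cover 250 bases before and 50 bases after the annotated start, and run 5′ to 3′ on the gene's strand. Capitals mark matches, on either strand, to the core of an interferon-stimulated response element (GAAA, any 2 bases, GAAA), to TTCNNNGAA (a gamma-activated site, the form bound by STAT factors) and to CCAAT (the box bound by NF-Y).
Psmb8, chr17:34197945-34198244, plus strand: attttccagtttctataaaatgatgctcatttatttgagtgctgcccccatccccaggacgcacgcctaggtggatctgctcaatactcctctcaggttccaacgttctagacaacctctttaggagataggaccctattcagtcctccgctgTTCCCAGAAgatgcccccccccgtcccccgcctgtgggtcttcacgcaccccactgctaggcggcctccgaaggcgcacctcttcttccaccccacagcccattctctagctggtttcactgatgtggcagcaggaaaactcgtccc
Psmb9, chr17:34187281-34187580, minus strand: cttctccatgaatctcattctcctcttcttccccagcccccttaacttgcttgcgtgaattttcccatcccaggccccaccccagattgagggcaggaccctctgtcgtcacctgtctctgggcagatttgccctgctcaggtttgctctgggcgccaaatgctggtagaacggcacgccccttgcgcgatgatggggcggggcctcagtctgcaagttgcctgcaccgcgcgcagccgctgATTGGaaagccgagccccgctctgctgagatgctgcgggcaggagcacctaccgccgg
Psmb10, chr8:105938343-105938642, minus strand: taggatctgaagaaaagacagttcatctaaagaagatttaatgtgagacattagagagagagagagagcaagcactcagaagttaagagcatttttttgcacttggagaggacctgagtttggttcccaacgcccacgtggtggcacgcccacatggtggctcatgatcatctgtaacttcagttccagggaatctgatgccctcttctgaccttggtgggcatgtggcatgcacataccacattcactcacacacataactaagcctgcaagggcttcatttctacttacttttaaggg
Psme1, chr14:55578244-55578543, plus strand: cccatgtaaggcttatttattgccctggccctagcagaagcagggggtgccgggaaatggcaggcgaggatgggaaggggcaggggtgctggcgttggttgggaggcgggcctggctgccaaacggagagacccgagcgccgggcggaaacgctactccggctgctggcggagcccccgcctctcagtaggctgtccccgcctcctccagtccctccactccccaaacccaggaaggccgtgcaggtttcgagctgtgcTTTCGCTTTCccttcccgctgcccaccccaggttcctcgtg

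Psmb8 held 1 TTCNNNGAA match, at position -97 from the start, Psmb9 held 1 CCAAT match at position -8, Psme1 held 1 interferon element core at position 9, and the Psmb10 window held none of the 3. Promoters were matched for 42 of the 50 genes. The interferon element core occurred in 5 of these 42 (Psmb3, Psmd4, Psmd9, Psme1 and Psmg4) and in 3.49% of all 27025 promoters of this length. TTCNNNGAA occurred in 3 of 42 (Psmb8, Psmd2 and Psmg1), against 8.47% of all, and CCAAT in 15 of 42, against 37.9% of all. The matches describe letters in these windows only.

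The first question was how proteasome genes differed between D2 and D1 of culture. At D2, most subunits of the 20S core, the 19S cap and their assembly chaperones were lower than at D1, with and without IL-6. Psme3, Psme4 and the ubiquitin receptor Psmd4 were higher. In control cultures, 34 of the 50 genes fell and 6 rose, where 23.5% of all named probe sets fell and 19.7% rose (43.2% either way). In IL-6 cultures, 34 fell and 4 rose, where 20.2% of all fell and 13% rose (33.2% either way). The median log2 fold change of the 50 genes was -0.74 in control and -0.82 in IL-6 cultures, beside 0.17 and 0.09 over all probe sets. The 2 comparisons used different arrays but shared 1 estimate of the spread. Of the genes that fell, 32 fell in both, which is 94.1% of each list. The 4 genes that rose in IL-6 cultures (Psme3, Psme4, Psmd4 and Psmd11) all rose in control cultures, where they made up 66.7% of the list. No gene passed in opposite directions. The overlap over all named probe sets was not counted, so these shares cannot be read as particular to the 50 genes.

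Among the alpha ring genes, 7 of 8 fell in both culture conditions, with Psma2 as the exception. Psma7, the alpha4 subunit, read 13.38 and 13.76 in D2-IL6, against 14.84 and 14.79 in D1-IL6. In control cultures it read 13.21 and 13.11 at D2, against 14.82 and 14.64 at D1. The D2 arrays lay below the D1 arrays in each case (log2 fold change -1.24 ± 0.15 with IL-6, adjusted p = 0.000105, and -1.57 ± 0.15 in controls, adjusted p = 1.49e-05). Psma4 (alpha3) fell by 1.48 and 1.75 on the log2 scale. Psma2 (alpha2) differed by less than the spread, at 15.45 and 15.25 in D2-IL6 and 15.34 and 15.40 in D1-IL6. Psma8 was among the genes that passed, but it was near background in all arrays. The call of Psma6 (alpha1) was lost with IL-6 without D1-IL6 replicate 1 (-0.46, adjusted p = 0.103) or D2-IL6 replicate 1 (-0.46, adjusted p = 0.0639). In controls it was lost without D1-Control replicate 1, D1-Control replicate 2 or D2-Control replicate 2 (adjusted p = 0.0744, 0.0563 and 0.0957). That of Psma5 (alpha5) was lost in controls without D1-Control replicate 1 (-0.29, adjusted p = 0.127) or D2-Control replicate 2 (-0.33, adjusted p = 0.0859). The Psma8 call was lost without D1-IL6 replicate 2 with IL-6 (adjusted p = 0.0518), and in controls without D1-Control replicate 2 or D2-Control replicate 1 (adjusted p = 0.0662 and 0.0566).

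Of the structural beta subunits, Psmb2 (beta4), Psmb3 (beta3) and Psmb4 (beta7) fell in both culture conditions and Psmb1 (beta6) did not pass in either. Psmb2 read 14.90 and 14.86 in D2-IL6, against 16.07 and 16.02 in D1-IL6, and 14.64 and 14.69 in D2-Control, against 16.05 and 15.99 in D1-Control. Its arrays agreed within 0.1 log2 units in each group, and the fall was 2.25-fold with IL-6 and 2.56-fold without. Of the constitutive catalytic subunits, Psmb6 fell by 0.93 ± 0.15 with IL-6 (adjusted p = 0.000671) and by 0.85 ± 0.15 in controls (adjusted p = 0.001). Psmb6 read 13.22 and 13.48 in D2-IL6, against 14.29 and 14.28 in D1-IL6. Psmb7 did not pass in either condition: it read 13.14 and 13.54 in D2-IL6, against 13.94 and 13.62 in D1-IL6.

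The immunoproteasome subunits Psmb8 and Psmb9 showed the largest differences of the 50 genes in control cultures. Psmb8 read 6.62 and 6.60 in D2-Control, both near background, against 9.33 and 9.80 in D1-Control. Psmb9 read 6.94 and 7.52 in D2-Control, again near background, against 10.31 and 10.77 in D1-Control. Both fell out of the measurable range at D2, so their log2 fold changes of -2.96 ± 0.27 and -3.31 ± 0.31 (adjusted p = 1.16e-05 for each) are also given as bounds: at least 4.23-fold lower for Psmb8 and at least 8.28-fold lower for Psmb9. These bounds set the D1 mean against the background level, or against the gene's own value where that is higher. With IL-6 both genes stayed above background at D2. Psmb8 read 9.13 and 9.29 in D2-IL6, against 10.55 and 10.49 in D1-IL6 (-1.31 ± 0.27, adjusted p = 0.00386), a call that quantile normalization ended (-0.73, adjusted p = 0.0723). Psmb9 read 9.33 and 8.96 in D2-IL6, against 10.90 and 11.07 in D1-IL6 (-1.84 ± 0.31, adjusted p = 0.000908). Psmb10 passed in controls (-1.76 ± 0.28, adjusted p = 0.000533) and not with IL-6 (-0.41). In controls 1 of its D1 arrays was near background as well, which leaves its bound at -0.01 on the log2 scale.

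The 20S assembly chaperones had a median log2 fold change of -2.02 with IL-6 and -1.90 in controls. Psmg2, Psmg3 and Psmg4 fell in both conditions and Psmg1 did not pass. Psmg4 (PAC4) read 8.11 and 8.87 in D2-IL6, against 10.81 and 10.45 in D1-IL6. In controls it read 8.49 and 8.02 at D2, against 10.38 and 10.57 at D1, a fall of 4.66-fold (adjusted p = 0.000295). Psmg3 (PAC3) was 7.49 and 7.43 in D2-Control, against 9.62 and 9.79 in D1-Control, and fell by 2.25 ± 0.30 on the log2 scale (adjusted p = 0.000147). Of the 19S assembly chaperones, Psmd9 fell in both conditions, Psmd5 fell with IL-6 (-0.92 ± 0.27, adjusted p = 0.0223), and Psmd10, also known as gankyrin, rose in controls (1.07 ± 0.22, adjusted p = 0.00315). The Psmd5 call was lost without D1-IL6 replicate 1 (-0.98, adjusted p = 0.0826), D1-IL6 replicate 2 (-0.85, adjusted p = 0.125) or D2-IL6 replicate 1 (-0.51, adjusted p = 0.139), and after quantile normalization (-0.52, adjusted p = 0.137).

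In the 19S cap, 4 of 6 ATPases fell in each condition (Psmc1, Psmc3, Psmc4 and Psmc5), while Psmc2 and Psmc6 did not pass. In controls the call of Psmc5 (-0.51) was lost without each of the 4 arrays in turn (adjusted p = 0.152, 0.121, 0.108 and 0.0806 without D1-Control replicates 1 and 2 and D2-Control replicates 1 and 2) and after quantile normalization (-0.27, adjusted p = 0.214). That of Psmc3 (-0.50) was lost there without D1-Control replicate 1 (adjusted p = 0.0554) or D2-Control replicate 1 (-0.35, adjusted p = 0.0606). The 11 other cap subunits were split. In both conditions Psmd1, Psmd3, Psmd6, Psmd7, Psmd12 and Psmd14 fell, and Psmd4 and Psmd11 rose. The Psmd12 call was lost with IL-6 without D1-IL6 replicate 1 or D2-IL6 replicate 1 (adjusted p = 0.129 and 0.0782). In controls it was lost without D1-Control replicate 1, D1-Control replicate 2 or D2-Control replicate 2 (adjusted p = 0.0849, 0.103 and 0.152) and after quantile normalization (adjusted p = 0.0813), with values of -0.74, -0.70, -0.47 and -0.49. Psmd1 was lost in controls without D1-Control replicate 1 (-0.54, adjusted p = 0.0752). Psmd13 passed with IL-6 (-1.02 ± 0.23, adjusted p = 0.00671) and not in controls, a call lost without D1-IL6 replicate 2 (-0.92, adjusted p = 0.0634), and its IL-6 effects at D2 and D1 did not pass the test of their difference (-1.32 ± 0.33, adjusted p = 0.136). Psmd3, a scaffold of the lid, had one of the best separated values. It read 12.89 and 12.85 in D2-IL6, against 14.54 in both D1-IL6 arrays, and 12.38 and 12.34 in D2-Control, against 14.44 and 14.62 in D1-Control. The fall was 3.18-fold with IL-6 and 4.51-fold in controls, larger than the spread between arrays (adjusted p = 6.87e-06 and 8.00e-07). Psmd14, the deubiquitinase of the lid, fell by 1.32 and 1.67 on the log2 scale. Psmd7, its partner, fell by 1.53 and 1.64.

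The genes that rose at D2 included the activators Psme3 and Psme4 and a ubiquitin receptor. Psme3 read 16.42 and 16.45 in D2-IL6, against 14.87 and 15.02 in D1-IL6, and 16.60 and 16.58 in D2-Control, against 14.82 and 14.95 in D1-Control. It rose 2.81-fold with IL-6 and 3.26-fold in controls (adjusted p = 7.14e-07 and 2.31e-07). Psme4 read 12.03 and 12.34 in D2-IL6, against 10.66 and 10.70 in D1-IL6, and 12.47 and 12.34 in D2-Control, against 10.42 and 10.84 in D1-Control. It rose 2.83-fold with IL-6 and 3.43-fold in controls. In contrast, the 11S genes Psme1 and Psme2 fell in both conditions, by 0.57 and 0.59 on the log2 scale with IL-6 and by 0.65 and 0.73 in controls. With IL-6, the Psme1 call was lost without D1-IL6 replicate 1 (-0.53, adjusted p = 0.0562), and the Psme2 call without either D1-IL6 array (-0.59, adjusted p = 0.0614 each). Psme2b, a near-identical copy of Psme2 whose probes may not be separable from it, fell in controls (-0.74 ± 0.22, adjusted p = 0.0187). This call was lost without D1-Control replicate 2 (adjusted p = 0.124) or D2-Control replicate 2 (adjusted p = 0.0957), and after quantile normalization (-0.23, adjusted p = 0.435).

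Psmd4 (Rpn10), which binds ubiquitin chains, read 13.91 and 13.86 in D2-IL6, against 12.18 and 12.15 in D1-IL6, and 14.06 and 13.72 in D2-Control, against 12.44 and 12.28 in D1-Control. It rose 3.29-fold with IL-6 and 2.88-fold in controls. Psmd11 (Rpn6), which holds the lid and the core together, rose by 0.97 ± 0.23 with IL-6 and 0.74 ± 0.23 in controls (adjusted p = 0.00808 and 0.0257). Its call with IL-6 was lost without D1-IL6 replicate 1 (0.83, adjusted p = 0.0751). Its call in controls was lost without D1-Control replicate 2 (0.43, adjusted p = 0.219) or D2-Control replicate 1 (0.62, adjusted p = 0.118), and with arrays centred on their medians (0.61, adjusted p = 0.0758). Psmf1 fell by 0.81 ± 0.17 with IL-6 and by 0.68 ± 0.17 in controls (adjusted p = 0.0041 and 0.00913), and its call in controls was lost without D1-Control replicate 2 (adjusted p = 0.0672) or D2-Control replicate 1 (adjusted p = 0.0579). Psmb11 passed with a higher value in D2-Control but was near background in all arrays, and the call was lost without D1-Control replicate 2 (adjusted p = 0.109) and after quantile normalization (adjusted p = 0.0634). Fitted in 1 model with the freshly isolated cells, 15 genes passed with IL-6, beside 21.9% of all named probe sets in that fit, and 20 in controls, beside 32.5%.

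Stem and progenitor markers moved with these differences. Their mean over 6 genes was 7.0 and 6.77 in D2-IL6 and 9.26 and 8.96 in D1-IL6, and it was 6.11 and 5.90 in D2-Control and 9.12 and 9.43 in D1-Control. Of these 6 genes, 4 lay near background in both arrays of D2-IL6, 5 in D2-Control and 2 in each D1 group. Monocyte and macrophage markers moved beside the immunoproteasome genes in controls, where 7 of 11 fell and none rose (median -3.39), with means of 7.08 and 7.40 in D2-Control and 9.40 and 9.95 in D1-Control. With IL-6, 4 of the 11 rose and 1 fell (median 0.68), with means of 10.98 and 10.85 in D2-IL6 and 10.11 and 10.38 in D1-IL6. In both arrays of a group, 2 of the 11 were near background in D2-IL6, 3 in D1-IL6, 5 in D2-Control and 2 in D1-Control. Of 15 neutrophil markers, 8 fell in controls (median -1.29; means of 6.60 and 6.67 in D2-Control and 8.40 and 9.10 in D1-Control), and 2 rose and 4 fell with IL-6 (median -0.13; means of 9.13 and 8.92 in D2-IL6 and 9.47 and 9.87 in D1-IL6). Near background were 6 of the 15 in D2-IL6, 5 in D1-IL6, 11 in D2-Control and 6 in D1-Control. Erythroid markers split: of 13 measured, 5 rose and 5 fell with IL-6 (median -0.28), and 4 rose and 4 fell in controls (median 0.11). Their means were 14.85 and 14.91 in D2-IL6, 14.87 and 14.83 in D1-IL6, 15.09 and 15.02 in D2-Control, and 14.96 and 14.97 in D1-Control. The part of these marker lists in the results was not tested.

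**Figure D1:**
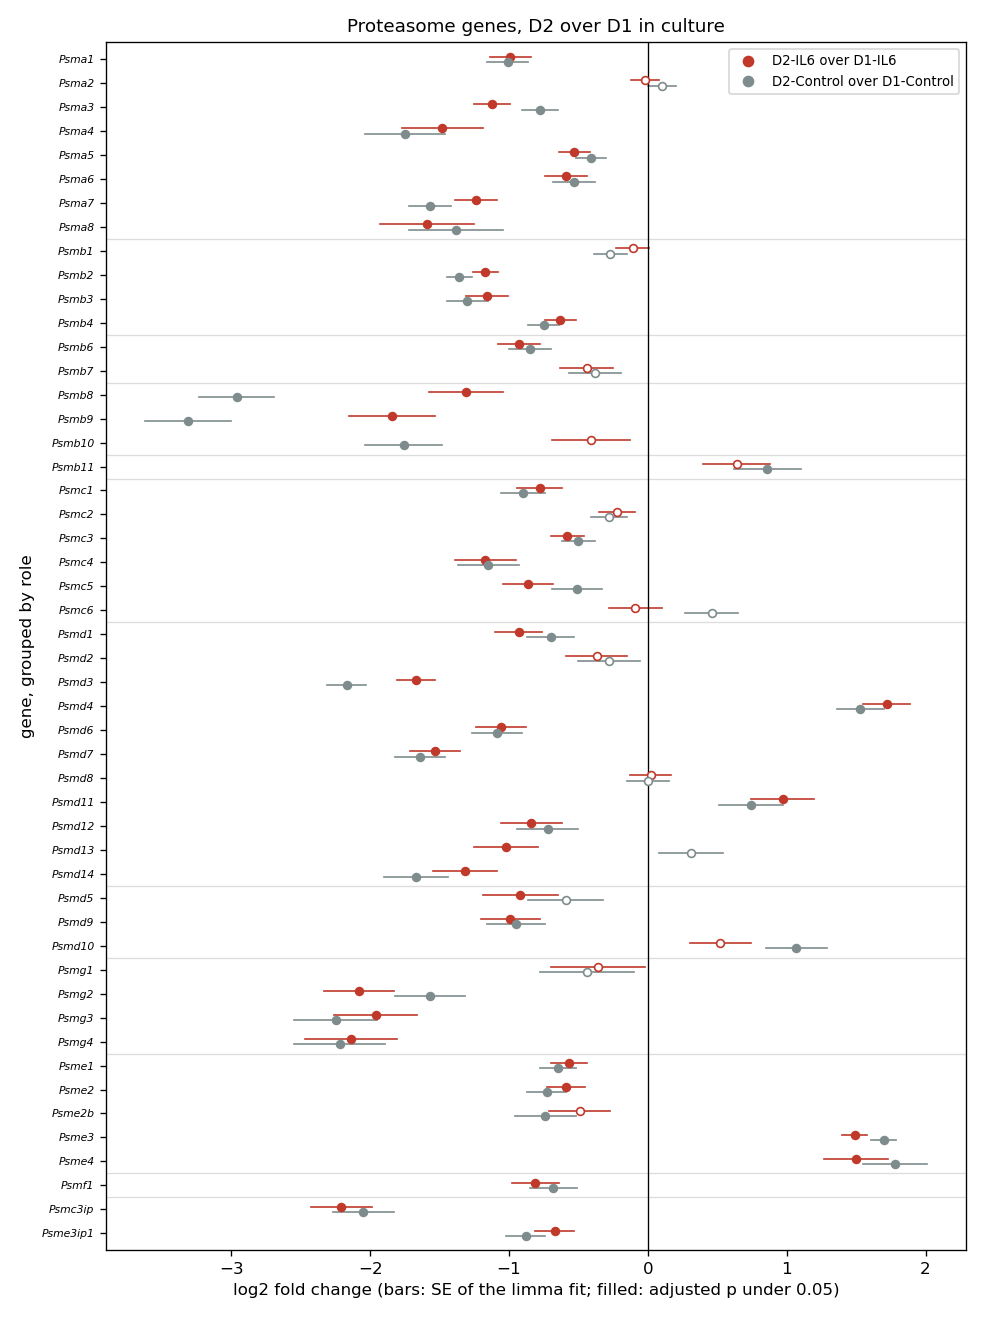
Log2 fold changes of the 50 proteasome genes at D2 over D1, in IL-6 cultures (red) and control cultures (grey), grouped by role down the page. Bars are SEs of the limma fit (2 arrays per group) and filled points have an adjusted p under 0.05. Most points lie left of 0, while Psme3, Psme4, Psmd4 and Psmd11 lie right of it in both conditions.

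Partners of the proteasome outside the symbol pattern moved in both directions at D2. Of 13 measured genes, 5 rose and 4 fell with IL-6, and 5 rose and 6 fell in controls. Zfand5, which activates the 26S proteasome, read 16.42 and 16.20 in D2-IL6, against 13.63 and 13.42 in D1-IL6, and 16.42 and 16.38 in D2-Control, against 13.70 and 13.71 in D1-Control. It rose by 2.78 ± 0.12 with IL-6 and 2.70 ± 0.12 in controls (adjusted p = 6.34e-08 and 7.05e-08). Usp14, a deubiquitinase on the 19S cap, rose by 1.57 and 1.85. Ublcp1, a proteasome phosphatase, rose by 1.52 and 1.85. Fbxo7, an F-box protein that binds Psmf1, rose by 1.21 and 1.10, and Akirin2, which brings proteasomes into the nucleus, rose by 0.81 and 1.13. Pomp, the maturation factor of the 20S core, fell with the core subunits, by 1.34 ± 0.18 with IL-6 (adjusted p = 0.000187) and by 1.88 ± 0.18 in controls (adjusted p = 1.27e-05). Uchl5, another deubiquitinase of the cap, fell by 1.64 and 1.44, Sem1 by 0.66 and 0.91, and Ubl4a by 0.99 and 1.08. Zfand2a (-2.03 ± 0.46, adjusted p = 0.00489) and Ube3c (-0.96 ± 0.22, adjusted p = 0.00538) fell in controls.

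Of 11 measured genes that control transcription of proteasome subunits, 4 rose and 2 fell in each condition. Nfe2l1 encodes NRF1, the factor that raises proteasome subunit transcription when proteasome activity is short. It read 16.41 and 16.55 in D2-IL6, against 14.01 and 14.31 in D1-IL6, and 16.52 in both D2-Control arrays, against 14.00 and 14.36 in D1-Control. It rose by 2.33 ± 0.14 with IL-6 (adjusted p = 6.13e-07) and by 2.34 ± 0.14 in controls (adjusted p = 4.75e-07). Its small MAF partners rose as well, Mafk by 4.84 and 4.57 and Mafg by 3.26 and 3.51, as did Bach1, a repressor that also binds small MAFs, by 2.24 and 2.32. Nfya and Nfyc, subunits of the CCAAT-binding factor NF-Y, fell by 1.08 and 0.80 with IL-6 and by 1.42 and 0.77 in controls.

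The second question was what IL-6 changed at each point. At D2, IL-6 cultures had higher signal of all 3 immunoproteasome subunits, and no other proteasome gene passed (3 of 50, beside 3.31% of all named probe sets either way and 2.92% upward). Psmb8 read 9.13 and 9.29 in D2-IL6, against 6.62 and 6.60 in D2-Control, and rose by 2.60 ± 0.27 (adjusted p = 0.000242). Psmb9 read 9.33 and 8.96 in D2-IL6, against 6.94 and 7.52 in D2-Control, and rose by 1.91 ± 0.31 (adjusted p = 0.00507). Psmb10 read 7.34 and 7.66 in D2-IL6, against 5.75 and 5.74 in D2-Control, and rose by 1.76 ± 0.28 (adjusted p = 0.00481). The arrays of the 2 groups did not overlap for these genes. All D2-Control values lay near background, so the rises were at least 3.32-fold for Psmb8 and at least 3.16-fold for Psmb9. For Psmb10, also near background in 1 D2-IL6 array, the bound was 0.02 on the log2 scale.

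The 3 calls were kept when any 1 of the 4 arrays was left out, but were lost when all 20 arrays were fitted together (adjusted p = 0.214 for Psmb8, 0.345 for Psmb9 and 0.477 for Psmb10). The other catalytic subunits and the caps differed by less: Psmb6 by -0.04 ± 0.15, Psmb7 by -0.10 ± 0.19, Psme1 by 0.20 ± 0.13 and Psme2 by 0.43 ± 0.14 (adjusted p = 0.945, 0.869, 0.55 and 0.195). Psme3 differed by -0.15 ± 0.09, Psme4 by -0.22 ± 0.23 and Psmf1 by -0.09 ± 0.17 (adjusted p = 0.492, 0.726 and 0.861). The median over the 50 genes was 0.00, beside -0.07 over all probe sets. Of 12 measured antigen processing genes, Tap1, which pumps proteasome products into the endoplasmic reticulum, alone passed. It read 8.58 and 8.35 in D2-IL6, against 6.81 and 7.09 in D2-Control (1.51 ± 0.27, adjusted p = 0.0115).

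Markers of monocytes and macrophages were also higher in D2-IL6: 8 of 11 measured rose, and their mean was 10.98 and 10.85 in D2-IL6, against 7.08 and 7.40 in D2-Control. Csf1r, the receptor for the macrophage growth factor, read 13.03 and 12.71 in D2-IL6 and 7.36 and 7.12 in D2-Control. In both arrays of the group, 2 of the 11 were near background in D2-IL6 and 5 in D2-Control. Neutrophil markers showed 8 of 15 higher, with means of 9.13 and 8.92 in D2-IL6 and 6.60 and 6.67 in D2-Control; 6 and 11 of the 15 lay near background. Both cell types express the immunoproteasome, and their part in the result was not tested.

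At D1 no proteasome gene passed, beside 0.0511% of all named probe sets. An unadjusted p under 0.05 was found for 1 of 50, beside 554 of the 19572 named probe sets. That gene was Psmb8, which read 10.55 and 10.49 in D1-IL6, against 9.33 and 9.80 in D1-Control (0.96 ± 0.27, adjusted p = 1.00). Psmd13 (0.48 ± 0.23) and Psma3 (0.26 ± 0.13) had the next smallest p-values. Between the IL-6 effects at D2 and D1, 5 of the 50 genes differed at an unadjusted p under 0.05. Of the 19572 named probe sets 1567 did. The difference between these effects was not past the threshold for any of the 50 genes, beside 1.19% of all. It was 1.65 ± 0.39 for Psmb8 (adjusted p = 0.104), 1.46 ± 0.43 for Psmb9 (adjusted p = 0.254) and 1.34 ± 0.40 for Psmb10 (adjusted p = 0.249).

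**Figure D2:**
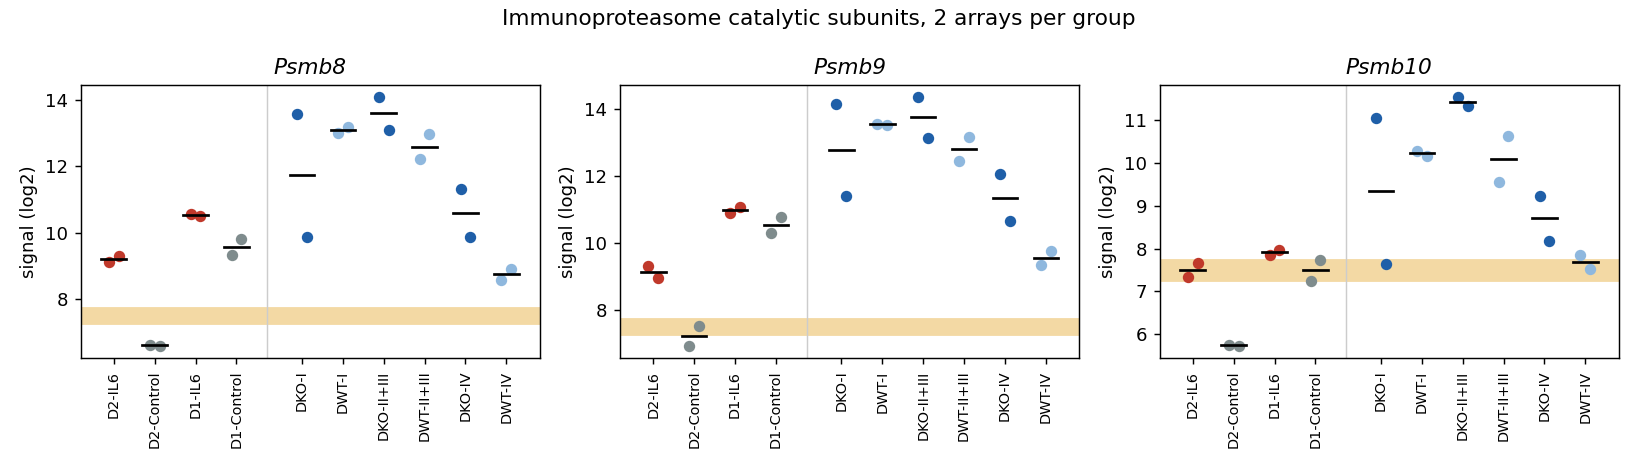
Log2 signal of Psmb8, Psmb9 and Psmb10 in every array, with IL-6 in red, control cultures in grey, DKO in dark blue and DWT in light blue. Points are arrays, black lines are means of 2 arrays, and the band spans the background levels of 7.25 to 7.74. D2-Control lies in or under the band for all 3 genes, and stage IV lies below stage II+III in both genotypes.

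The third question was how proteasome genes differed between erythroblast stages in mice. The immunoproteasome subunits and the 11S activators Psme1 and Psme2 had lower signal at stage IV than at stage II+III in both genotypes, while Psmf1 (PI31) had higher signal. Few of these differences passed with all 12 arrays in the fit. In DWT mice, 5 of the 50 genes fell at stage IV and none rose, where 3.57% of all named probe sets fell and 5.16% passed either way. Psmb8 read 8.58 and 8.91 in DWT-IV, against 12.21 and 12.96 in DWT-II+III (-3.84 ± 0.97, adjusted p = 0.0493). Psmb9 read 9.34 and 9.75 in DWT-IV, against 12.46 and 13.17 in DWT-II+III (-3.27 ± 0.81, adjusted p = 0.0461). The arrays of the 2 stages lay more than 2 log2 units apart for both genes. Psme1 read 14.05 and 14.20 in DWT-IV, against 15.24 and 15.74 in DWT-II+III (-1.37 ± 0.32, adjusted p = 0.0382). Psme2b fell by 2.05 ± 0.45 (adjusted p = 0.0314) and Psmg4 fell by 2.06 ± 0.50 (adjusted p = 0.0438). These 5 calls lay close to the threshold, and each was lost when any 1 of the 4 arrays was left out (adjusted p of 0.0748 to 0.322). With the DWT mouse as a block, 1 was kept. Psmb10 read 7.85 and 7.52 in DWT-IV and 9.54 and 10.61 in DWT-II+III, and did not pass (adjusted p = 0.147).

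In DKO mice, 2 genes fell at stage IV over stage II+III and none rose, where 3.66% of all fell and 7.77% passed either way. Psme1 read 14.79 and 14.69 in DKO-IV, against 16.02 and 15.94 in DKO-II+III (-1.24 ± 0.32, adjusted p = 0.0419). Psme2b read 11.87 and 11.92 in DKO-IV, against 13.69 and 13.56 in DKO-II+III (-1.73 ± 0.45, adjusted p = 0.0441). Both calls were lost when any 1 of the 4 arrays was left out (adjusted p of 0.129 to 0.216), with arrays centred on their medians or with the block. Psmb8 read 11.32 and 9.86 in DKO-IV, against 14.07 and 13.10 in DKO-II+III, and Psmb9 read 12.05 and 10.66 in DKO-IV, against 14.35 and 13.15 in DKO-II+III. Their log2 fold changes, -2.99 and -2.40, did not pass (adjusted p = 0.0924 and 0.105).

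Without DKO-I replicate 2, which shares the estimate of spread, 14 genes passed in DWT (5 up and 9 down, where 16.7% of all passed) and 13 in DKO (4 up and 9 down, where 18.5% of all passed). Psmb8, Psmb9, Psmb10, Psme1, Psme2, Psme2b, Psmg4 and Psmb2 fell in both. In DKO mice, Psmb8 then fell by 2.99 ± 0.50 (adjusted p = 0.00307), Psmb9 by 2.40 ± 0.51 (adjusted p = 0.00977) and Psmb10 by 2.72 ± 0.45 (adjusted p = 0.00274). Psmf1 rose in both: it read 15.63 and 15.50 in DKO-IV, against 13.22 and 13.57 in DKO-II+III (2.17 ± 0.27, adjusted p = 0.000833), and 15.99 and 15.75 in DWT-IV, against 15.02 and 14.32 in DWT-II+III (1.20 ± 0.27, adjusted p = 0.0162). In DKO, Psme3 rose by 1.83 ± 0.23, Psmd4 by 1.23 ± 0.30 and Psmd5 by 1.44 ± 0.43, and Psma6 fell by 0.95 ± 0.28. In DWT, Psme4 rose by 1.30 ± 0.35, Psmc2 by 1.06 ± 0.28 and Psmd9 by 1.22 ± 0.36, and Psma7 fell by 1.42 ± 0.33. Psmb11 also passed there while near background in all arrays.

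The remaining core and cap genes differed in sign by class without passing in the fit of 12 arrays. In both genotypes the log2 fold change at stage IV was below 0 for all 8 alpha ring genes (medians -0.32 in DKO and -0.28 in DWT) and above 0 for all 6 ATPases (medians 0.60 in DKO and 0.39 in DWT), except that Psmc1 was below 0 in DKO after quantile normalization. Of the 8 alpha ring genes, Psma8 was near background in all arrays. The median over the 50 genes was 0.01 in DKO and -0.13 in DWT, and it changed sign in DKO to -0.07 and was 0.00 in DWT after quantile normalization. Neutrophil markers moved with the fall of the immunoproteasome genes. Their mean over 15 genes was 12.82 and 11.72 in DKO-IV, against 15.87 and 15.71 in DKO-II+III, and 8.66 and 10.59 in DWT-IV, against 12.37 and 13.82 in DWT-II+III. Of the 15, 9 fell in DKO and 8 in DWT. None was near background in both arrays of DKO-IV or DKO-II+III, and 1 was in DWT-IV and in DWT-II+III. Of 11 monocyte and macrophage markers, 3 fell in DKO (median -2.35) and 4 in DWT (median -2.55). Their means were 10.58 and 10.28 in DKO-IV, against 12.36 and 12.91 in DKO-II+III, and 9.62 and 9.80 in DWT-IV, against 11.68 and 12.13 in DWT-II+III, with 1 near background in each of these groups except DWT-II+III, which had 0. Erythroid markers moved with the higher signal of Psmf1. Of 13, 12 rose in DKO (median 3.05) and 2 in DWT (median 1.42), with means of 15.67 and 15.70 in DKO-IV, against 12.22 and 13.10 in DKO-II+III, and 15.96 and 15.78 in DWT-IV, against 15.02 and 14.23 in DWT-II+III. Other lists had medians, in DKO and DWT, of -2.28 and -2.92 for eosinophils and -2.30 and -1.82 for T and NK cells. They were -1.32 and -2.08 for dendritic cells and -2.48 and -3.20 for stem and progenitor cells. B cell markers (0.41 and -0.55) and megakaryocyte and platelet markers (0.71 and -0.17) differed in sign between the genotypes. The part of these lists in the results was not tested.

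**Figure D3:**
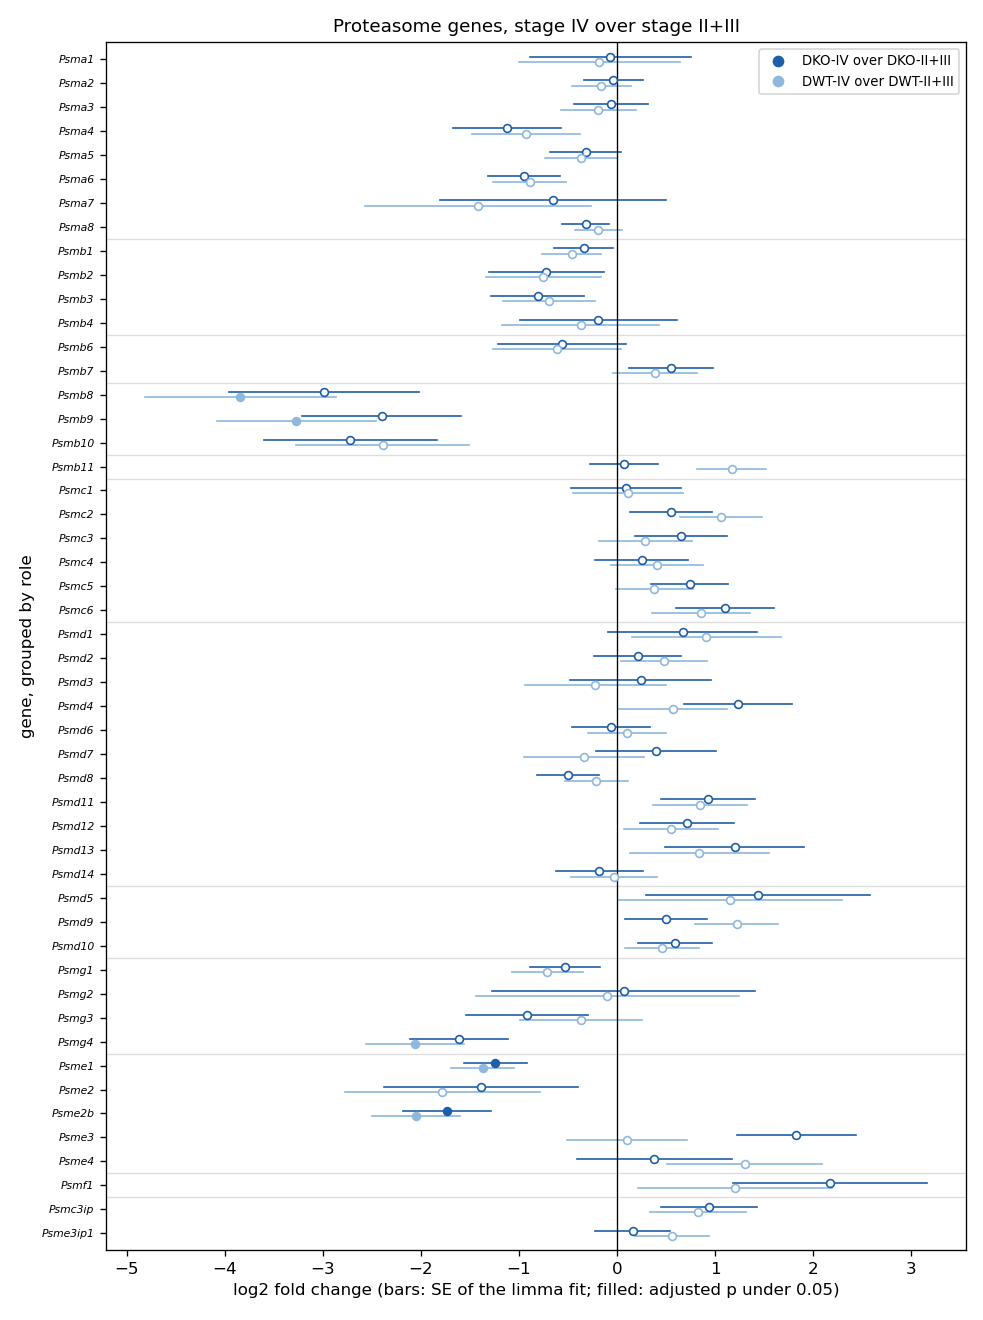
Log2 fold changes of the 50 genes at stage IV over stage II+III, in DKO (dark blue) and DWT (light blue) mice, grouped by role. Bars are SEs of the 12-array limma fit (2 arrays per group) and filled points have an adjusted p under 0.05. The immunoproteasome genes lie farthest left in both genotypes and Psmf1 lies right of 0.

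Of the partner list, Usp14 and Fbxo7 rose at stage IV in DKO mice. Fbxo7 read 14.37 and 14.59 in DKO-IV, against 11.59 and 12.13 in DKO-II+III (2.62 ± 0.39, adjusted p = 0.00572), and Usp14 rose by 1.86 ± 0.45 (adjusted p = 0.0331). Of the transcription list, Mafk rose by 3.02 ± 0.77, Nfyb by 2.13 ± 0.43 and Mafg by 1.71 ± 0.46 (adjusted p = 0.0397, 0.0164 and 0.0483), and of the antigen processing list Erap1, a peptide-trimming enzyme, fell by 1.76 ± 0.44 (adjusted p = 0.0361). In DWT mice no gene of the 4 outside lists passed at the same step in the fit of 12 arrays. The lists were not tested without DKO-I replicate 2. Fbxo7 read 14.58 and 14.75 in DWT-IV, against 13.89 and 13.06 in DWT-II+III. Usp14 read 11.60 and 10.74 in DWT-IV, against 9.63 and 9.16 in DWT-II+III, so both were higher at stage IV in DWT as well.

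From stage I to stage II+III no proteasome gene passed in either genotype, beside 0.327% of all named probe sets in DKO and 0.245% in DWT. In DKO 8 of the 50 had an unadjusted p under 0.05 and in DWT 1, beside 2038 and 1457 of 19572 named probe sets. In DKO the smallest were those of Psmf1 (4.12 ± 0.99, adjusted p = 0.172), Psme3 (1.92 ± 0.61, adjusted p = 0.356) and Psmg2 (3.80 ± 1.34, adjusted p = 0.411). Each included the low DKO-I replicate 2. Without that array Psmf1 passed in DKO (2.01 ± 0.33, adjusted p = 0.0327), where 0.603% of all did, while Psme3 (0.71 ± 0.28, adjusted p = 0.512) and Psmg2 (0.91 ± 0.50, adjusted p = 0.757) had smaller differences. Erythroid markers moved with these values in DKO, where 9 of 13 rose (median 3.42). In DWT none of them passed (median 1.62), with means of 15.02 and 14.23 in DWT-II+III, against 13.14 and 12.98 in DWT-I. Of 15 neutrophil markers, 4 fell in DWT (median -3.31), with means of 12.37 and 13.82 in DWT-II+III, against 16.43 and 16.57 in DWT-I. In DKO no neutrophil marker passed (median -0.47). The part of these lists in the values of either genotype was not tested. In DWT, Psmf1 read 15.02 and 14.32 in DWT-II+III, against 13.09 and 13.29 in DWT-I, and Psme3 read 16.13 and 16.08 in DWT-II+III, against 14.74 and 14.72 in DWT-I. Both passed without DKO-I replicate 2 (1.48 ± 0.27, adjusted p = 0.027, and 1.38 ± 0.23, adjusted p = 0.0196). Without DKO-I replicate 1 in its place, so that DKO-I is the array that stood apart alone, 31 genes passed in DKO, beside 23.3% of all named probe sets.

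**Figure D4:**
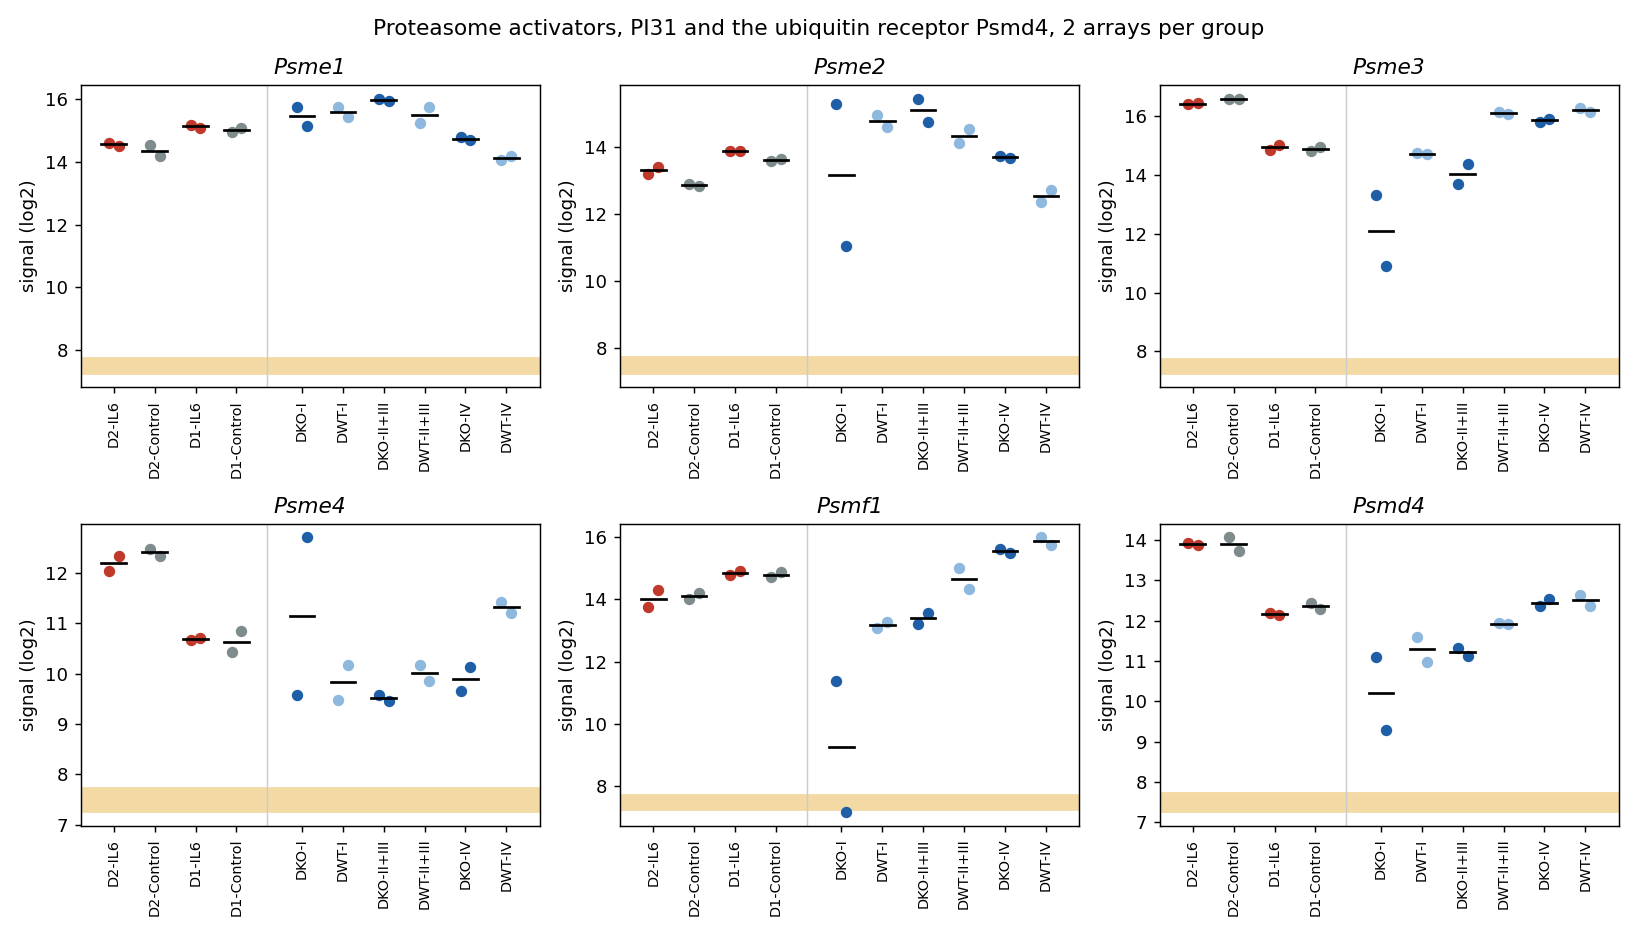
Log2 signal of the activators Psme1, Psme2, Psme3 and Psme4, of Psmf1 and of Psmd4 in every array, coloured as in the plot of immunoproteasome genes. Points are arrays, black lines are means of 2 arrays, and the band spans the background levels. Psme3, Psme4 and Psmd4 are higher at D2 than at D1 of culture, Psme3 is lower in DKO than in DWT at stages I and II+III, and DKO-I replicate 2 lies far from its partner for all but Psme1.

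The last question was how DKO mice differed from DWT mice at each stage. No proteasome gene passed at stage I, II+III or IV, beside 0.445%, 0.618% and 0.046% of all named probe sets. Unadjusted p-values under 0.05 numbered 5, 5 and 4 of the 50, beside 3028, 1816 and 1588 of the 19572 named probe sets. The median over the 50 genes was -0.63, 0.40 and 0.46 at the 3 stages, beside 0.15, 0.01 and -0.02 over all probe sets. The sign at stage I turned without DKO-I replicate 2: the median was then 0.11, beside 0.02 over all probe sets, with 30 of the 50 genes above 0. At stage II+III the log2 fold change was above 0 for all 18 genes of the 20S core, of which Psma8 and Psmb11 were near background (0.14 to 1.35, median 0.61), and at stage IV for 16 of them, apart from Psma4 and Psmb11 (-0.50 to 1.85, median 0.71). Arrays did not overlap, with DKO higher, for 26 of the 50 genes at stage II+III and 29 at stage IV, where 23% and 22.4% of all probe sets did so. DKO arrays were lower without overlap for 5 genes at stage II+III and 6 at stage IV, beside 21.2% and 23.4% of all. At stage I the DKO arrays lay apart and higher for 4 and lower for 10 genes, beside 26.7% and 17.4% of all.

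Psmb8 read 14.07 and 13.10 in DKO-II+III, against 12.21 and 12.96 in DWT-II+III, and 11.32 and 9.86 in DKO-IV, against 8.58 and 8.91 in DWT-IV. Psmb9 read 12.05 and 10.66 in DKO-IV, against 9.34 and 9.75 in DWT-IV. Psmb10 read 9.23 and 8.17 in DKO-IV, against 7.85 and 7.52 in DWT-IV. The DKO arrays lay above the DWT arrays at stage IV for the 3 genes, but the DKO arrays differed by more than 1 log2 unit from each other. Log2 fold changes were 1.85 ± 0.97, 1.81 ± 0.81 and 1.02 ± 0.88 (adjusted p = 0.696, 0.611 and 0.849). These errors, and those of the genes below, are from the fit of 12 arrays, whose spread includes DKO-I replicate 2. Psma6 (alpha1), the member with the smallest p-value at stage II+III after Psme3, read 15.17 and 15.56 in DKO-II+III, against 14.29 and 14.25 in DWT-II+III (1.09 ± 0.37, adjusted p = 0.314). Psma8, near background, was the other of the 3 with the smallest p-values. At stage IV the 3 smallest were those of Psme2b (1.34 ± 0.45, adjusted p = 0.47), Psma6 (1.03 ± 0.37, adjusted p = 0.492) and Psmb1 (0.80 ± 0.30, adjusted p = 0.534). Psmb1 read 15.64 and 15.67 in DKO-IV, against 14.70 and 15.00 in DWT-IV. The mean of the 15 neutrophil markers was 15.87 and 15.71 in DKO-II+III, against 12.37 and 13.82 in DWT-II+III. At stage IV it was 12.82 and 11.72 in DKO-IV, against 8.66 and 10.59 in DWT-IV. The median log2 fold change of the list was 3.03 at stage II+III and 3.04 at stage IV. Not every listed gene was higher in both DKO arrays: Mpo read 14.70 and 10.86 in DKO-IV, against 13.15 and 14.08 in DWT-IV. Over the whole list of 15, 2 genes rose at stage II+III and none passed at stage IV. At stages II+III and IV, the median was 1.12 and 0.57 for monocytes and macrophages and 0.82 and 0.76 for T and NK cells. It was -0.27 and 0.72 for B cells, 0.03 and 1.11 for dendritic cells and -1.91 and -0.24 for eosinophils. Megakaryocyte and platelet markers (-0.98 and -0.17) and stem and progenitor markers (-1.26 and -0.06) lay below 0. The T and NK cell mean was 10.54 and 7.95 in DKO-IV, against 8.73 and 9.02 in DWT-IV. The part of these lists in the values above was not tested.

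Psme3, Psmf1 and Psme4 were among the genes that ran the other way. Psme3 read 13.69 and 14.38 in DKO-II+III, against 16.13 and 16.08 in DWT-II+III. Psmf1 read 13.22 and 13.57 in DKO-II+III, against 15.02 and 14.32 in DWT-II+III. The DKO arrays were below the DWT arrays for both. The log2 fold change of Psme3 was -2.07 ± 0.61 (adjusted p = 0.23) with all 12 arrays and passed without DKO-I replicate 2 (-2.07 ± 0.23, adjusted p = 0.00162). Psmf1 likewise passed only without that array (-1.27 ± 0.99, adjusted p = 0.814, with it, and -1.27 ± 0.27, adjusted p = 0.0344, without it). These 2 were the genes that passed there, beside 2.96% of all. At stage I, Psme3 read 13.33 and 10.90 in DKO-I, against 14.74 and 14.72 in DWT-I, and Psmf1 read 11.39 and 7.17 in DKO-I, against 13.09 and 13.29 in DWT-I. Psme3 differed by -2.62 ± 0.61 (adjusted p = 0.123), and by -1.40 ± 0.28 (adjusted p = 0.082) without DKO-I replicate 2. Psmf1 differed by -3.91 ± 0.99 (adjusted p = 0.155), and by -1.80 ± 0.33 (adjusted p = 0.0487) without DKO-I replicate 2. Psmd1 had the third smallest p-value at stage I (-2.03 ± 0.76, adjusted p = 0.29). It read 11.56 and 8.54 in DKO-I, and without DKO-I replicate 2 it differed by -0.52 ± 0.36 (adjusted p = 0.935). At stage IV the genotypes lay close: Psme3 read 15.82 and 15.91 in DKO-IV, against 16.27 and 16.14 in DWT-IV, and Psmf1 read 15.63 and 15.50 in DKO-IV, against 15.99 and 15.75 in DWT-IV. No member passed at stage IV with or without DKO-I replicate 2.

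Erythroid markers moved with these values. At stage I, 11 of 13 fell in DKO, with list means of 9.61 and 8.81 in DKO-I, against 13.14 and 12.98 in DWT-I. At stage II+III, 3 of 13 fell, with means of 12.22 and 13.10 in DKO-II+III, against 15.02 and 14.23 in DWT-II+III. At stage IV none passed, with means of 15.67 and 15.70 in DKO-IV, against 15.96 and 15.78 in DWT-IV. Kel, a red cell surface antigen gene, read 8.50 and 6.73 in DKO-I, against 13.64 and 13.62 in DWT-I. The part of these markers in the values of Psme3 and Psmf1 was not tested. No gene passed the test of a difference in DKO effect between stage II+III and stage I (0% of all probe sets). The same held between stage IV and stage II+III (0%). An unadjusted p under 0.05 was seen for 0 and 1 of the 50 genes, beside 942 and 662 of 19572 named probe sets. For Psme3 these differences were 0.55 ± 0.87 (adjusted p = 0.875) and 1.73 ± 0.87 (adjusted p = 1.00), and the first changed sign without DKO-I replicate 2 (-0.67 ± 0.36, adjusted p = 1.00).

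**Figure D5:**
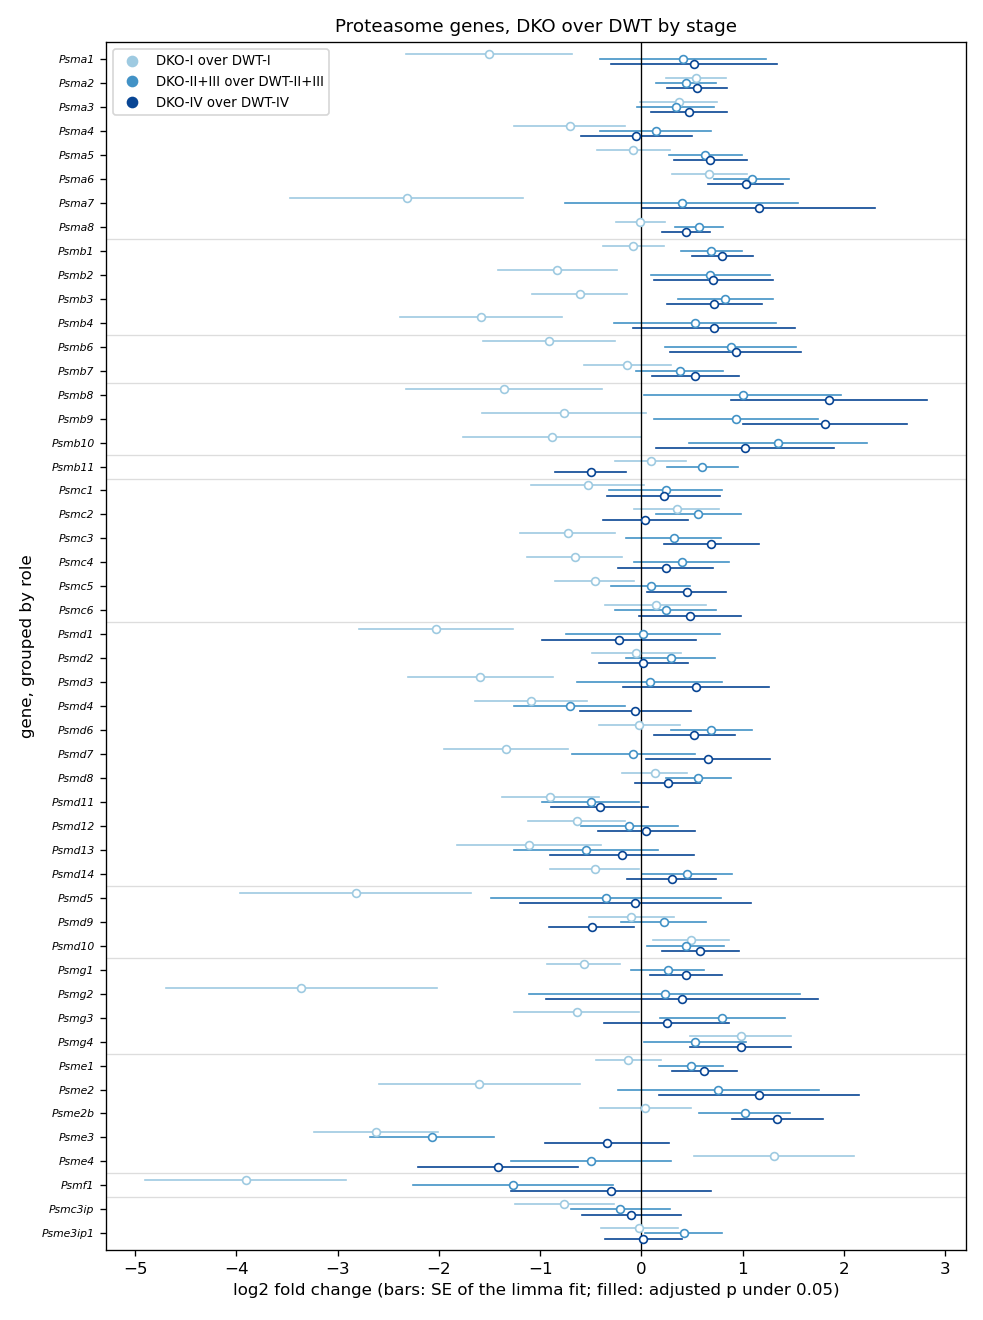
Log2 fold changes of the 50 genes in DKO over DWT mice at stage I (pale), stage II+III (mid blue) and stage IV (dark), grouped by role. Bars are SEs of the 12-array limma fit (2 arrays per group); no point is filled, since none had an adjusted p under 0.05. At stages II+III and IV the 20S core genes lie mostly right of 0, and Psme3, Psme4 and Psmf1 lie left of it. The bars are wide where DKO-I replicate 2 lay apart.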

How the data were processed

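The authors deposited log2 values per probe set, computed by RMA in Affymetrix Expression Console, per the submitters' processing notes (versions and genome build not given in the sources used here). Per the labels' protocols, 700 pg of total RNA per array was amplified and labelled with a Pico kit. Whether all arrays were normalized together is not stated. Of 28846 probe sets, 22206 measure transcripts and 19572 carry 1 gene symbol (none carries several, 2634 carry none). All 50 genes matched RefSeq by Entrez ID.

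Tests used lmFit and eBayes (with an intensity trend) of limma 3.58.1 under R 4.3.3, in separate fits of the 8 cultured and the 12 freshly isolated arrays. Residual degrees of freedom were 4 and 6, and prior degrees of freedom 6.41 and 4.52. P-values are 2-sided and Benjamini-Hochberg adjusted over all 19572 probe sets. The code was tested on simulated data. With 2 arrays per group, precision is limited by their number. The labels do not tie the cultured or DKO arrays to animals, so for these p-values measure the spread between samples.

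The members and lists were chosen with earlier results of these data known. Named genes were the catalytic subunits, activators and Psmf1, up to 10 passing genes in each direction whose arrays do not overlap (or the 3 smallest p-values), and up to 5 passing genes per direction of each outside list; a few subunits beyond this rule (such as Psma2, Psmb1 and Psmb2) were named to account for a class. Bounds are given where both arrays of 1 group lay near background. The DWT replicates are 1 male and 1 female at each stage, which pairs them across stages; the male minus female deviations correlated at 0.10, 0.02 and 0.12 between stages. Alternatives were another normalization, centring, filter, variance model, set of arrays or probe sets, the mouse as a block, and each array left out.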

Additional observations from a re-analysis of the deposited data

How the results depend on the processing

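Array number and, for Psmb8, Psmb9, Psmb10, Psma8 and Psmb11, signal near background limit these results. Counts below are of the 50 genes that passed, and most are given without the share of all probe sets under the same setting. That share moved too. For D2 over D1 with IL-6 it was 33.2% in the main fit and 21.9% in 1 fit of all 20 arrays. The counts alone therefore do not tell a change in the 50 genes from one over all probe sets. In 1 fit of all 20 arrays they were 0 for D2-IL6 over D2-Control, 15 for D2 over D1 with IL-6, 20 in controls, 2 for DKO over DWT at stage I, 1 at stage II+III, 1 for stage II+III over I in DKO, and 8 in DKO and 9 in DWT for stage IV over II+III. In the 4 compared arrays alone they were 7 in DKO and 13 in DWT at the last step, and 2 for DWT stage II+III over I. Quantile normalization gave 3 for DWT stage IV over II+III and 1 for the difference between the IL-6 effects, centring on array medians gave 0 in DKO and 2 in DWT at stage IV, and testing without dim probe sets gave 2 for the IL-6 difference. With the DWT mouse as replicate block, 0 passed in DKO and 1 in DWT at stage IV over II+III, and no other count of calls moved by over 1.5 times. Each gene had 1 probe set, so a mean over probe sets changes nothing. The median of all probe sets at D2 over D1 in controls was 0.03 or 0.04 after these scalings and 0.17 as deposited, and the 50 genes' median was -0.68 or -0.86. No called gene changed direction under any alternative. Leaving out 1 array in turn (the lone array of a group is then assumed to vary like the others) gave 3 to 4 for IL-6 at D2 and 0 to 0 at D1, 32 to 40 for D2 over D1 with IL-6 and 32 to 35 in controls, 0 to 28 for DKO over DWT at stage I (28 without DKO-I replicate 1, beside 31% of all probe sets), 0 to 2 at II+III and 0 to 0 at IV. It gave 0 to 31 in DKO and 0 to 2 in DWT for II+III over I, 0 to 13 in DKO and 0 to 14 in DWT for IV over II+III, 0 to 1 for the IL-6 difference, 0 to 24 for the DKO effect at II+III minus I and 0 to 0 for IV minus II+III. Of the D2 over D1 calls, 30 of 38 with IL-6 and 29 of 40 in controls were kept without each array in turn. The fits without DKO-I replicate 2 were added after the data were seen, except in comparisons that include that group.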

Other observations

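Genes that carry ubiquitinated proteins to the proteasome also differed between D2 and D1 of culture. Of 7 measured shuttle and p97 genes, 1 rose and 4 fell with IL-6, and 1 rose and 3 fell in controls. Ubqln4, an ubiquilin shuttle, fell by 2.12 ± 0.29 with IL-6 (adjusted p = 0.000235) and fell by 2.95 ± 0.29 in controls (adjusted p = 1.67e-05). Rad23b, a shuttle with roles in DNA repair, fell by 1.91 and 1.98, and Ubqln2 by 1.25 and 1.92. Ubqln1 fell with IL-6 by 0.69 ± 0.23 (adjusted p = 0.042). Ufd1, a cofactor of p97, rose by 0.97 and 0.94.

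Antigen processing genes split in the same comparison, where 2 of 12 rose and 4 fell with IL-6, and 2 rose and 5 fell in controls. Tap1 read 8.58 and 8.35 in D2-IL6, against 10.12 and 10.19 in D1-IL6, and 6.81 and 7.09 in D2-Control, against 10.60 and 10.25 in D1-Control. The chaperones Canx (by 1.83 and 1.90) and Pdia3 (by 1.37 and 1.64) and the light chain B2m (by 0.68 and 0.74) fell with it, and Erap1 fell in controls by 1.26 ± 0.32. The heavy chain gene H2-D1 ran the other way: it read 12.68 and 12.72 in D2-IL6, against 9.96 and 10.31 in D1-IL6, and rose by 2.57 ± 0.28 with IL-6 and by 2.60 ± 0.28 in controls. H2-K1 rose by 0.85 and 0.62. Of the 2 genes that match the symbol pattern without being subunits, Psmc3ip fell by 2.21 ± 0.22 with IL-6 and by 2.05 ± 0.22 in controls.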
